A study of Saccharomyces cerevisiae S288C with 6 samples.

Results

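The 10 genes described here encode nuclear subunits of the cytochrome bc1 complex (COR1, QCR2, QCR6, QCR7, QCR8, QCR9, CYT1 and RIP1, with QCR10 not among them) and the 2 isoforms of cytochrome c (CYC1 and CYC7) of budding yeast. They were taken by name from a deposited table of 7126 genes, and all 10 were found there. The table compares 3 libraries labelled ltv1 deletion, a homozygous strain written ltv1∆/ltv1∆ (EDS615), with 3 labelled wild type (EDS76). Each label names a single strain, both in the S288C background, grown in rich medium (YPD) at 30 °C to mid-exponential phase, and no other allele or treatment is given. The series asks which gene expression and phenotype differences follow the loss of Ltv1, an assembly factor of the small ribosomal subunit. Messenger RNA was read as tags from polyadenylated RNA with molecular identifiers, and the values are read counts divided by a size factor for each library (normalized read counts).

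The bc1 complex, or complex III, sits in the inner mitochondrial membrane. It takes electrons from ubiquinol, passes them to cytochrome c, and moves protons across the membrane as it does so. Cytochrome c is a small soluble haem protein that carries the electrons on to cytochrome c oxidase. In yeast on glucose, respiration is repressed, and the genes of the chain are under the control of the Hap2/3/4/5 complex, which binds CCAAT, and of the haem-dependent factor Hap1. CYC1 encodes the main aerobic isoform, iso-1-cytochrome c, and CYC7 the minor isoform, iso-2-cytochrome c, which is known as the hypoxic form.

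Within the 10 genes, the coding sequences of CYT1, CYC1 and CYC7 hold the codons for the haem attachment site, a cysteine, any 2 residues, a cysteine and a histidine. The pattern was found in frame in 66 of 6002 nuclear protein-coding genes (1.10%) of the R64 reference. These stretches are shown because they mark the 3 proteins that carry covalently bound haem, and because they show how far the isoform genes have diverged. Capitals mark the cysteine and histidine codons, which are codons 101 to 105 of CYT1 (chrXV:447715-447777, plus strand), 20 to 24 of CYC1 (chrX:526368-526430, plus strand) and 24 to 28 of CYC7 (chrV:79870-79932, minus strand).
CYT1: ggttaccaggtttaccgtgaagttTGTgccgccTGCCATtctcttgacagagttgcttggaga
CYC1: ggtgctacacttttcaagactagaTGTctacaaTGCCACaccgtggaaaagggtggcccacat
CYC7: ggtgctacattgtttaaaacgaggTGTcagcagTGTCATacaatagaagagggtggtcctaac
The CYC7 coding sequence was longer than that of CYC1 by 4 codons. Compared backwards from the stop codon with no gap, 252 of 330 bases were identical (76.4%). The longest stretch shared at any offset of the coding sequences was 35 bases. Bases beyond the stop codons, which tags from 3' ends can cover, were not compared.

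Upstream sequences were searched for 4 motifs on both strands, from 400 to 101 bases before the start codon. These were CCAAT, the Hap1-type site (CGG, then NNN, TA, N and CGG without a gap), the stress response element CCCCT, and ATTGTT, the core of the site of the hypoxic repressor Rox1. The windows of CYC7 and CYC1 are shown because these genes encode the 2 isoforms, of which only CYC7 passed the threshold given below. A difference between the 2 genes was not tested. The window of QCR6 is shown because it is the only one of the 10 genes with a Hap1-type match. Capitals mark every match, and no match overlapped another motif.
CYC7 (chrV:80078-80377, minus strand): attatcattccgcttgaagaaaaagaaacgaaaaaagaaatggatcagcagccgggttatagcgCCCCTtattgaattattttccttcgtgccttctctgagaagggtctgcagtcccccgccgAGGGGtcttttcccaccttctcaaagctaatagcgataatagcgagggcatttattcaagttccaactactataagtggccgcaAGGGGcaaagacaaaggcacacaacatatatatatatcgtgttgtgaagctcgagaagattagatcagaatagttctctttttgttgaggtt
CYC1 (chrX:525935-526234, plus strand): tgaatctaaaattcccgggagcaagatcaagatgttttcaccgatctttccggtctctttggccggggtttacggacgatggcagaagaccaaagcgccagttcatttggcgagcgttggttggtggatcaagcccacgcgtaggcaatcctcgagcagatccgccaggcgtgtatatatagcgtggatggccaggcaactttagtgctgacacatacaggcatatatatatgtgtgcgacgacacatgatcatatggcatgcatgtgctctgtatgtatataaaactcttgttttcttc
QCR6 (chrVI:224870-225169, minus strand): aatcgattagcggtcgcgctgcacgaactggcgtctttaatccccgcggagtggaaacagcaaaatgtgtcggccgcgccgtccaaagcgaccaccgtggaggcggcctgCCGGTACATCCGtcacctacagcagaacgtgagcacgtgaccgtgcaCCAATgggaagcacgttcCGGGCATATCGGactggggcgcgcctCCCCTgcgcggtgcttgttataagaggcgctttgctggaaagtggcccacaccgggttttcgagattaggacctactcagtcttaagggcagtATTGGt
CYC7 held 3 matches to CCCCT, which began 336, 276 and 192 bases before the start codon, and none to the other 3 motifs. Of 6001 windows of nuclear protein-coding genes, 23.5% held CCCCT and 49 (0.817%) held it at least 3 times. CYC1 held none of the 4 motifs as spelled. The CYC1 window lacked these letters and nothing more is read from it. QCR6 held 2 Hap1-type matches, a motif found in 0.217% of windows. The distal one, which began 290 bases before the start codon, lay within the neighbouring gene PHO4. CCAAT was found in 7 of the 10 genes (COR1, QCR2, QCR6, QCR7, QCR8, QCR9 and RIP1) and in 43.9% of all windows. CCCCT was also found in COR1, QCR6 and QCR9, and ATTGTT in QCR2 alone, against 31.9% of all windows. The windows of QCR2, QCR7 and QCR8 also reach into a neighbouring gene (61, 158 and 39 bases of it). These matches are descriptions of letters, and binding was not measured.

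The libraries held between 1002573 and 1248710 reads. LTV1 itself went against its labels. The LTV1 count was 680, 3.22 and 6.40 in the libraries labelled ltv1 deletion 1, 2 and 3, against 29.2, 191 and 8.77 in those labelled wild type 1, 2 and 3. The groups overlapped, and the highest value stood in a library labelled deletion. All directions below therefore compare libraries by their labels. Wild type 1 lay furthest from the others on the first principal component, at -59.43. Scores there were 38.65, 28.53 and 35.63 in ltv1 deletion 1, 2 and 3, against -15.5 and -27.88 in wild type 2 and 3. The 6 libraries thus lay apart by label along this axis, ltv1 deletion 1 and wild type 3 included. Whether any label was exchanged was not tested. On a diploid check, 11 of 16 haploid and mating type genes stayed under a mean of 5 normalized read counts, while STE4 averaged 39.0 in ltv1 deletion and 90.5 in wild type, and STE2 21.4 and 23.5. The 16 summed to between 75.8 and 122 in those labelled ltv1 deletion against 118 to 219.6 in wild type. Limma was run on log2(value + 1) for the 5663 genes whose 6 values averaged 5 or more. Its p-values were adjusted by the Benjamini-Hochberg method over that whole set, and an adjusted p under 0.05 counts as past the threshold. A fold change is the deletion mean less the wild type mean on this log2 scale, so the change of a low gene is understated. Separate cultures are not stated for the replicates, and the p-values then cover only the spread between these samples.

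All 10 genes were tested. In the libraries labelled ltv1 deletion CYC7 fell, which is 1 of 10, and 0 rose. Over all genes tested 15.9% passed the same threshold, 6.98% lower and 8.88% higher. A count of 1 in 10 thus lies near the background. At an unadjusted p under 0.05 in limma 2 of the 10 were lower and 0 higher, against 16.9% and 17.8% of all genes tested. EdgeR and DESeq2 also called 0 of the 10 higher, where they called 597 and 635 of all genes higher. In either direction edgeR and DESeq2 called 19.8% and 21.4% of all genes. The values of the 3 libraries of each label lay apart in 2 of the 10 genes, CYC7 and COR1, against 41.6% of all genes tested. The median log2 fold change of the 10 genes was -0.18, against -0.02 for all genes tested. For 8 of the 10 the 95% interval of the fold change included 0.

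**Figure D1:**
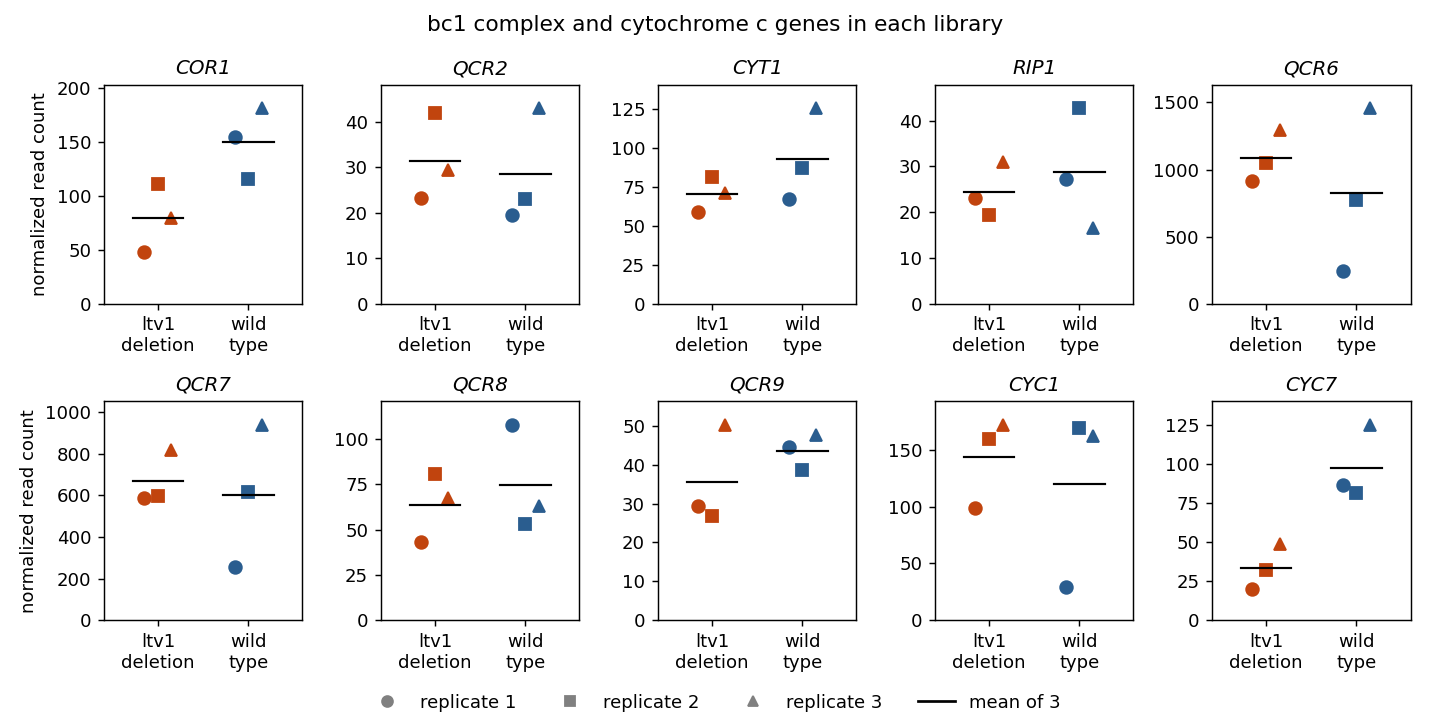
Normalized read counts (vertical axes, each from 0) of the 10 genes in the 3 libraries labelled ltv1 deletion and the 3 labelled wild type; marker shapes give the replicate number and bars the mean of 3. CYC7 and COR1 are the genes whose groups do not overlap, and wild type 1 is the lowest library for QCR6, QCR7 and CYC1.

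**Figure D2:**
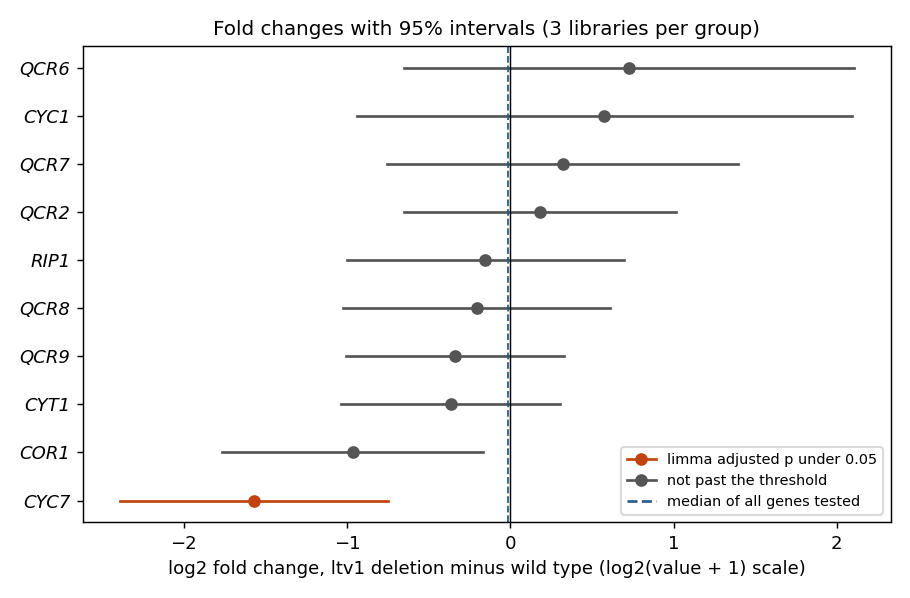
Log2 fold change of each gene (horizontal axis, ltv1 deletion minus wild type) with its 95% interval from limma, 3 libraries per group. CYC7 at -1.57 is past the threshold, COR1 at -0.97 has an interval below 0 but misses it, and the other intervals cross 0.

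CYC7 (YEL039C, chromosome V, 79636 to 79977, minus strand) encodes iso-2-cytochrome c. It had 19.97, 32.2 and 48.4 normalized read counts in the libraries labelled ltv1 deletion 1, 2 and 3, from 19, 30 and 53 reads, against 86.5, 81.2 and 124.8 in wild type 1, 2 and 3, from 89, 78 and 128 reads. Every library labelled deletion lay below every wild type library. The means were 33.5 ± 14.3 in ltv1 deletion and 97.5 ± 23.8 in wild type (SD, n = 3 each). The log2 fold change was -1.57 (standard error 0.35), with a 95% interval from -2.39 to -0.75 (limma adjusted p = 0.0263). This corresponds to a 2.97-fold lower level on the log2(value + 1) scale. In these bulk cultures a lower value cannot tell fewer expressing cells from less RNA per cell. The call held in all 9 alternatives of scaling, filter, pseudocount and test that kept the 6 libraries, with adjusted p from 0.000816 (DESeq2 on recovered reads) to 0.0417 (limma with no filter). With 1 library left out the log2 fold change stayed between -1.87 and -1.25, and the call was lost in 5 of 6 such fits. Limma's adjusted p was 0.0721, 0.0723 and 0.0547 without ltv1 deletion 1, 2 and 3, and 0.0550 and 0.0701 without wild type 1 and 3. Without wild type 2 it was 0.0351. Without both ltv1 deletion 1 and wild type 3, whose LTV1 reads were out of place, the log2 fold change was -1.07 (limma adjusted p = 0.134). In the authors' deposited table the log2 fold change of CYC7 was -0.78, its standard error 0.59, with an adjusted p of 1.

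CYC1 (YJR048W, chromosome X, 526335 to 526664, plus strand), the gene of iso-1-cytochrome c, had normalized read counts of 98.8, 159 and 172 in the libraries labelled ltv1 deletion 1, 2 and 3, against 29.2, 169 and 162 in wild type 1, 2 and 3. Wild type 1 stood well below the other 5 libraries, and the groups overlapped. The log2 fold change was 0.58 with a 95% interval from -0.94 to 2.09 (limma adjusted p = 0.561). Without wild type 1 it was -0.24 (limma adjusted p = 0.622). The direction of the CYC1 value thus rested on a single library.

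The pair was also set side by side within each library. The log2 ratio of CYC1 to CYC7, each with 1 added, was 2.25, 2.27 and 1.81 in the libraries labelled ltv1 deletion 1, 2 and 3, against -1.54, 1.05 and 0.37 in wild type 1, 2 and 3. Each deletion library had a higher ratio than each wild type library. The group means differed by 2.15, and by 1.40 without wild type 1. This ratio was formed after the values of both genes had been seen, and it was not tested.

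**Figure D3:**
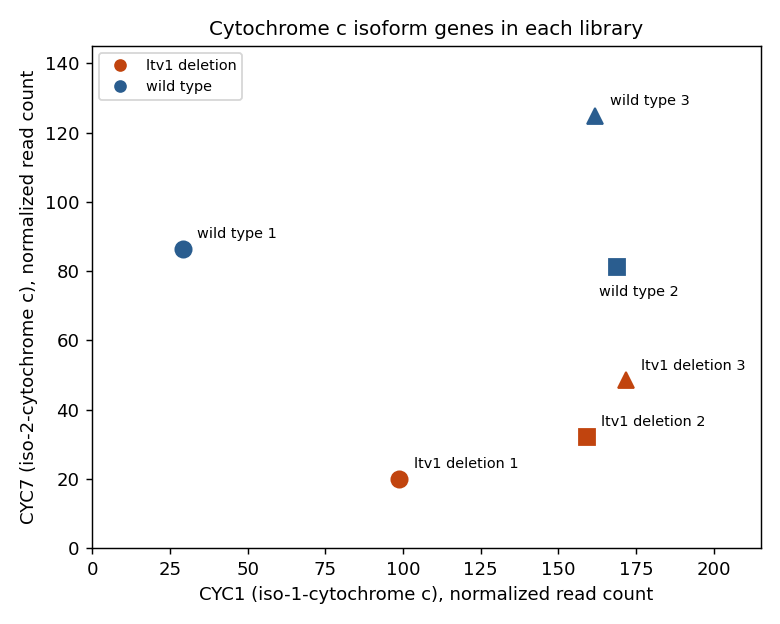
Normalized read counts of CYC1 (horizontal axis) and CYC7 (vertical axis), 1 point per library, with the replicate number beside it. The 3 libraries labelled ltv1 deletion lie below the wild type libraries for CYC7, and wild type 1 stands apart at 29.2 for CYC1.

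The core proteins COR1 and QCR2 face the mitochondrial matrix and carry no redox group. COR1 (YBL045C, chromosome II, 134143 to 135516, minus strand) had normalized read counts of 48.4, 111 and 79.5 in the libraries labelled ltv1 deletion 1, 2 and 3, against 154.5, 116 and 181 in wild type 1, 2 and 3. The groups did not overlap, with ltv1 deletion 2 close to wild type 2. The log2 fold change was -0.97 (standard error 0.34), with a 95% interval from -1.77 to -0.16, and it missed the threshold (limma adjusted p = 0.0929, unadjusted p = 0.0242). Over all genes tested 34.7% had an unadjusted p under 0.05. DESeq2 on recovered reads gave COR1 an adjusted p of 0.0469 and edgeR one of 0.0693. Without both ltv1 deletion 1 and wild type 3 the log2 fold change of COR1 was -0.51.

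QCR2 (YPR191W, chromosome XVI, 919381 to 920487, plus strand), the other core protein gene, had 23.1, 41.9 and 29.2 in the libraries labelled ltv1 deletion 1, 2 and 3, against 19.4, 22.9 and 42.9 in wild type 1, 2 and 3. These values came from 20 to 44 reads each, and the groups overlapped. The log2 fold change was 0.18 with a 95% interval from -0.65 to 1.02 (limma adjusted p = 0.747). COR1 and QCR2 therefore had values of opposite sign, of which neither passed the threshold, and the difference between them was not tested.

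The catalytic subunits of nuclear origin are CYT1, which encodes cytochrome c1 and hands electrons to cytochrome c, and RIP1, the Rieske iron-sulfur protein. CYT1 (YOR065W, chromosome XV, 447439 to 448368, plus strand) had 58.9, 81.7 and 71.3 normalized read counts in the libraries labelled ltv1 deletion 1, 2 and 3, against 67.1, 87.5 and 125.7 in wild type 1, 2 and 3. The groups overlapped, and wild type 3 was the highest library. Its log2 fold change was -0.36 with a 95% interval from -1.04 to 0.31 (limma adjusted p = 0.398). RIP1 (YEL024W, chromosome V, 107260 to 107907, plus strand) had 23.1, 19.3 and 31.1 in the libraries labelled ltv1 deletion 1, 2 and 3, against 27.2, 42.7 and 16.6 in wild type 1, 2 and 3. The wild type libraries held both the highest and the lowest value of RIP1. Its log2 fold change was -0.15 with a 95% interval from -1.003 to 0.70 (limma adjusted p = 0.794), from 17 to 41 reads per library. The catalytic subunit left, cytochrome b, is encoded by the mitochondrial gene COB, which had 2 to 7 reads per library and was below the filter. The libraries were made from polyadenylated RNA, and no level of COB RNA in the cells is read from these counts.

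The small subunits carry no redox group and surround the core of the complex. QCR6 (YFR033C, chromosome VI, 224326 to 224769, minus strand), an acidic subunit that lies near the cytochrome c1 head, had 913, 1049 and 1294 normalized read counts in the libraries labelled ltv1 deletion 1, 2 and 3, against 242, 775 and 1456 in wild type 1, 2 and 3. QCR7 (YDR529C, chromosome IV, 1496165 to 1496548, minus strand), on the matrix side, had 589.7, 598 and 817 in ltv1 deletion 1, 2 and 3, against 254, 618 and 939.6 in wild type 1, 2 and 3. For both genes the wild type libraries spanned the deletion libraries, with wild type 1 lowest and wild type 3 highest. The log2 fold change of QCR6 was 0.73 with a 95% interval from -0.65 to 2.10 (limma adjusted p = 0.412). It was 0.02 without wild type 1, 1.31 without wild type 3 (limma adjusted p = 0.132) and 1.43 without both ltv1 deletion 1 and wild type 3 (limma adjusted p = 0.204). That of QCR7 was 0.32 with a 95% interval from -0.75 to 1.40 (limma adjusted p = 0.653), and -0.21 without wild type 1.

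QCR8 (YJL166W, chromosome X, 106434 to 106718, plus strand) is a small membrane subunit, bound close to QCR7 and cytochrome b. It had 43.1, 80.6 and 67.6 normalized read counts in the libraries labelled ltv1 deletion 1, 2 and 3, against 107.9, 53.1 and 63.4 in wild type 1, 2 and 3. Wild type 1 was here the highest library, and the groups overlapped. QCR9 (YGR183C, chromosome VII, 859063 to 859476, minus strand), the gene of the smallest of these subunits and the only one of the 10 with an intron in its coding region, had 29.4, 26.9 and 50.3 in ltv1 deletion 1, 2 and 3, against 44.7, 38.5 and 47.8 in wild type 1, 2 and 3. Its highest value stood in ltv1 deletion 3. The log2 fold changes were -0.21 for QCR8 (95% interval from -1.02 to 0.61, limma adjusted p = 0.708) and -0.34 for QCR9 (95% interval from -1.01 to 0.33, limma adjusted p = 0.426).

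These intervals reach past a 2-fold change, a log2 value of 1, for all of QCR2, QCR6, QCR7, QCR8, QCR9, CYT1, RIP1 and CYC1 in at least 1 direction. A 2-fold change in 1 direction could thus not be told from no change for these genes at this depth and spread. In the authors' deposited table all 10 genes had an adjusted p of 1. Of all p-values there, 52.1% were exactly 1, and the sources used here do not give the null of that test. The deposited p-values are thus not comparable with those of limma, and no lack of change is read from them.

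The genes were lowest and highest in different libraries. Wild type 1 lay at least 1 log2 unit below both other wild type libraries for QCR6, QCR7 and CYC1, 3 of the 10 genes, against 4.94% of all genes tested. For CYC1 its difference from wild type 2 and 3 was -2.49 and -2.43 log2 units, and for QCR6 -1.67 and -2.58 units. It lay that far above both for 0 of the 10, against 3.30% of all genes tested. The comparison of wild type 1 was chosen after its values had been seen. Relative to each gene's own mean over the 6 libraries, COR1 and CYC7 were lowest in ltv1 deletion 1, at -1.11 and -1.42, and highest in wild type 3, at 0.77 and 1.16. RIP1 ran otherwise, lowest in wild type 3 at -0.59. Averaged over the 10 genes, the profile stood at -0.45, 0.01 and 0.17 in ltv1 deletion 1, 2 and 3, against -0.35, 0.14 and 0.48 in wild type 1, 2 and 3. Together the 10 genes took 0.163%, 0.189% and 0.241% of all normalized counts in ltv1 deletion 1, 2 and 3, against 0.0850%, 0.192% and 0.273% in wild type 1, 2 and 3.

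**Figure D4:**
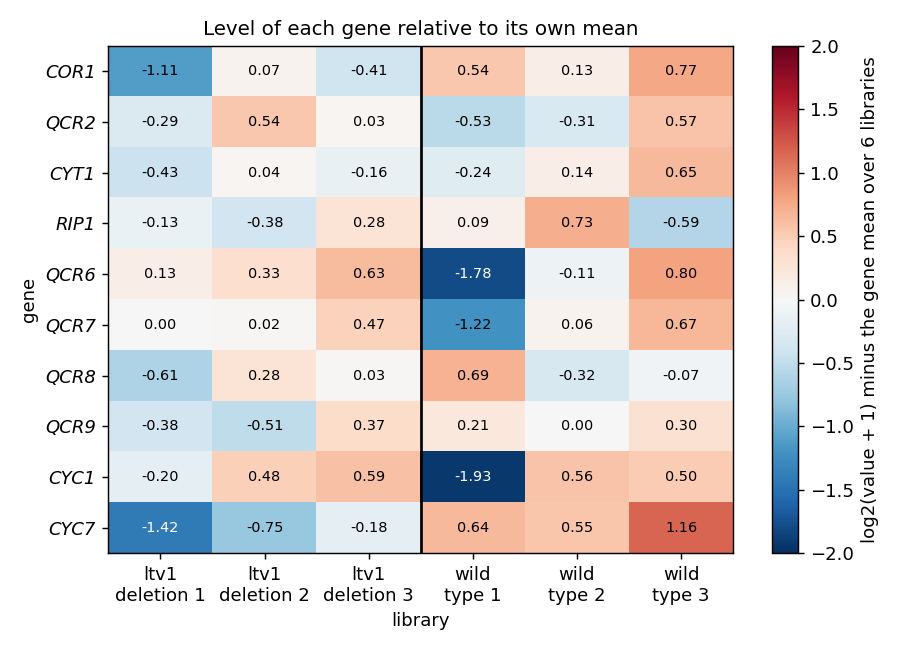
Level of each gene (rows) in each library (columns), as log2(value + 1) minus the gene's mean over 6 libraries; red is above and blue below that mean. QCR6, QCR7 and CYC1 are lowest in wild type 1, while CYC7 is below its mean in the 3 libraries labelled ltv1 deletion and above it in the 3 labelled wild type.

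Ranked by the root mean square difference from that mean profile over 6 libraries, the nearest of 5653 other tested genes were PAC2 (0.07 log2 units), EHT1 (0.09), GCN5 (0.10), RPL41B (0.12) and YSP3 (0.12). Their log2 fold changes lay between -0.20 and -0.06, and none passed the threshold. RPL41B has a near-identical paralog, so its share of reads is uncertain.

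The 10 genes lie on 8 chromosomes, with CYC1 and QCR8 on X and CYC7 and RIP1 on V. None is overlapped by another annotated gene. For 7 of them the next gene beyond the 3' end is convergent, with 175 to 596 bases between the coding ends. The sources used here do not give the strand used in counting, so tags of long 3' ends could be shared there.

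Around the complex, other genes were counted from lists of 66 genes, of which 64 were tested. The lists cover electron donors and acceptors, other complex III rows, assembly, ubiquinone and haem synthesis, and regulators. In the deletion libraries 9 of them fell and 0 rose, against 6.98% lower and 8.88% higher among all genes tested. In either direction 9 of 64 lies near the 15.9% called over all genes. All 9 were lower, and 9 of 64 lies above the 6.98% called lower over all genes. That difference was not tested. At an unadjusted p under 0.05 limma gave 18 lower and 2 higher, against 16.9% and 17.8% of all genes. The median of these genes was -0.44, against -0.02 for all genes tested. Of the 9, 5 were subunits of cytochrome c oxidase.

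Of 11 genes that take electrons from cytochrome c, which are subunits of cytochrome c oxidase and the peroxidase CCP1, 5 fell and 0 rose (median log2 fold change -0.83), where 6.98% of all genes tested fell and 8.88% rose. COX12, COX8 and COX6, all subunits of the oxidase, stood at -2.11, -2.04 and -1.92, with limma adjusted p of 0.0171, 0.0172 and 0.0201. COX8 rested on 5, 4 and 6 reads in ltv1 deletion 1, 2 and 3, against 39, 13 and 26 in wild type 1, 2 and 3. Its call was lost in 3 of 6 fits that left out a library. COX12 had 48.4, 93.5 and 47.5 normalized read counts in ltv1 deletion 1, 2 and 3, against 327, 174 and 320 in wild type 1, 2 and 3. COX5B, the hypoxic isoform of subunit V, stood at -1.54 and passed (limma adjusted p = 0.0400), and its aerobic counterpart COX5A stood at 0.10 and did not pass. The difference between COX5B and COX5A was not tested. The count of 5 in this list was 0, 2 and 0 without ltv1 deletion 1, 2 and 3, 3 without wild type 3, 3 with no filter on low values, and 0 without both ltv1 deletion 1 and wild type 3.

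Among 11 genes that feed electrons to ubiquinone or straight to cytochrome c, 1 fell and 0 rose. Over all genes tested 6.98% fell and 8.88% rose. The gene that fell was CYB2, and the median of the list was -0.45. CYB2 encodes the lactate dehydrogenase cytochrome b2, which reduces cytochrome c directly. It had 18.9, 58.0 and 45.7 normalized read counts in ltv1 deletion 1, 2 and 3, against 125, 112 and 392 in wild type 1, 2 and 3. The log2 fold change was -2.23 (limma adjusted p = 0.0385), and the call was lost in 5 of 6 fits that left out a library. Among those 6 it held without wild type 2, with a limma adjusted p of 0.0368, and it was also lost with no filter on low values. Without both ltv1 deletion 1 and wild type 3 the log2 fold change of CYB2 was -1.19 (limma adjusted p = 0.106). The external NADH dehydrogenase gene NDE1 stood at 1.90 and missed the threshold (limma adjusted p = 0.0559). EdgeR and DESeq2 each called 2 genes of this list lower and 1 higher, and called 19.8% and 21.4% of all genes in either direction.

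Of 11 genes of ubiquinone synthesis, COQ4 and COQ5 fell, at -1.35 and -1.11, with limma adjusted p of 0.0175 and 0.0277. Over all genes tested 6.98% fell and 8.88% rose. In this list 10 of the 11 values were negative (median -0.80), against 2879 of 5663 over all genes tested. COQ4 is needed for the synthesis complex and COQ5 is a methyltransferase of the ring. Limma's count was 0, 1 and 0 without ltv1 deletion 1, 2 and 3, 5 without wild type 2, 0 without both ltv1 deletion 1 and wild type 3, and 4 with edgeR. Of 8 genes of haem synthesis 1 fell and 0 rose, against the same 6.98% and 8.88% of all genes tested. This was HEM14, protoporphyrinogen oxidase, at -1.79 (limma adjusted p = 0.0171), and the median of the list was 0.01. HEM14 had 34.7, 38.7 and 20.1 normalized read counts in ltv1 deletion 1, 2 and 3, against 136, 84.4 and 104 in wild type 1, 2 and 3. Its call was lost without ltv1 deletion 1 and without ltv1 deletion 3, as well as without both ltv1 deletion 1 and wild type 3.

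Of 13 tested genes for assembly of the bc1 complex, expression of cytochrome b and attachment of haem, limma, edgeR and DESeq2 called 0. Over all genes these 3 tests called 15.9%, 19.8% and 21.4%. In limma 1 of the 13, CYT2, had an unadjusted p under 0.05, against 34.7% of all genes tested. CYT2, the lyase that attaches haem to cytochrome c1, had 27.3, 26.9 and 28.3 normalized read counts in ltv1 deletion 1, 2 and 3, against 51.5, 44.8 and 37.0 in wild type 1, 2 and 3. The groups did not overlap, and the log2 fold change of -0.66 missed the threshold (limma adjusted p = 0.0779). CYC3, the lyase that attaches haem to cytochrome c, stood at 0.52 (limma adjusted p = 0.332). QCR10, the subunit of the complex left out of the 10, had 5 to 23 reads per library and a log2 fold change of -0.65 (limma adjusted p = 0.268).

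Of 9 regulators, limma, edgeR and DESeq2 called 0, against 15.9%, 19.8% and 21.4% of all genes. In limma 0 of the 9 had an unadjusted p under 0.05, against 34.7% of all genes tested. HAP4, the activating subunit of the CCAAT-binding complex, had 94.6, 133 and 122 normalized read counts in ltv1 deletion 1, 2 and 3, against 112, 131 and 81.9 in wild type 1, 2 and 3. Its log2 fold change was 0.12 with a 95% interval from -0.50 to 0.74. HAP1 stood at -0.32 (95% interval from -1.25 to 0.61). The HAP1 gene of S288C is known to carry a transposon insertion near its 3' end. ROX1 had 67.3, 76.3 and 63.97 in ltv1 deletion 1, 2 and 3, against 24.3, 55.2 and 62.4 in wild type 1, 2 and 3. These groups did not overlap, and the log2 fold change of ROX1 was 0.64 (limma adjusted p = 0.244).

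**Figure D5:**
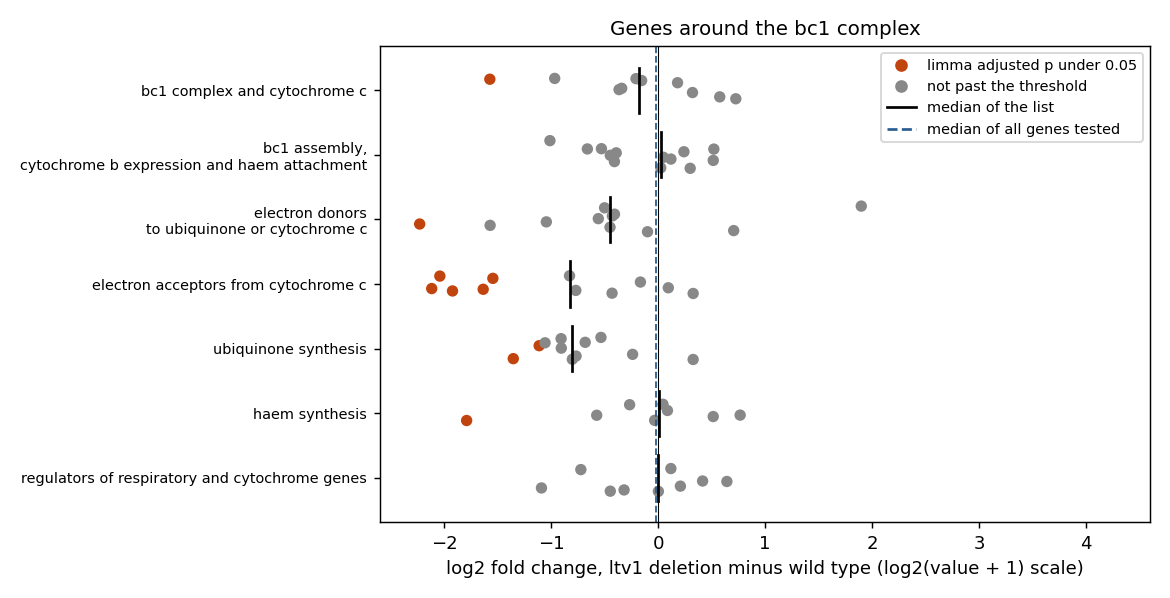
Log2 fold change (horizontal axis, ltv1 deletion minus wild type) of each tested gene in the 10 described genes and in 6 lists around them, 1 point per gene; black bars are list medians and the dashed line the median of all genes tested. The 5 called genes of the electron acceptors lie between -2.11 and -1.54, and CYC7 is the called gene among the bc1 complex and cytochrome c genes.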

How the data were processed

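Counts per gene came from 6 libraries of 3' tags, and per the submitters' processing notes, which give no role or order, the build was R64 and the tools included STAR and Salmon beside FastQC, Trim Galore, DESeq2 1.34.0 and R 4.1.3. How molecular identifiers and strand were used, the sources here do not say. The deposited signal of each gene was, in every library, a whole multiple (within 0.01) of 1 step for 100% of values, as counts divided by a size factor give. Whole reads were recovered from it, between 1002573 and 1248710 per library, and a floor of 3 reads is worth 2.74 to 3.22 normalized counts, for counting error only. The authors' mean in the deposited signal column was above 0 in 94 rows where all 6 libraries were at 0, so their fit held values not analysed here. The authors deposited log2 fold changes, their standard errors (a score column here) and p-values, of which 52.1% were exactly 1.

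Limma 3.58.1 in R 4.3.3 was fitted to all 5663 genes with a mean of at least 5, on log2(value + 1). EdgeR 4.0.16 and DESeq2 1.42.0 were run on recovered reads. The steps were tested on simulated data. Limma there called 0.585%, 5.25% and 80.5% of genes changed 1.5-fold, 2-fold and 4-fold, and 0.0769% of unchanged genes. Most simulated 2-fold changes were thus missed. Fewer genes were changed in each simulated run than limma called in the data, so these shares need not hold for the data. The 10 genes and all lists were chosen with earlier results of these data known. Named genes are the 10, LTV1, QCR10, COB, CYC3, CYT2, HAP1, HAP4, ROX1, up to 3 called genes of each list by adjusted p, and the 5 genes nearest in profile. COX5B, COX5A and NDE1 were added after their values were seen. Sequences and coordinates, 1-based, are from the RefSeq copy of R64, the build in the submitters' notes.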

Additional observations from a re-analysis of the deposited data

How the results depend on the processing

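The number of calls moved with the libraries used. With 1 library left out COX12 ran from -2.43 to -1.95, COX6 from -2.25 to -1.66, HEM14 from -1.97 to -1.51 and COQ4 from -1.47 to -1.21, with no change of sign. Limma called 898 genes, 430 with the replicate block and 16 without both ltv1 deletion 1 and wild type 3. With 1 library left out the count ran from 37, without ltv1 deletion 3, to 981, without wild type 2. It was 159 and 202 without ltv1 deletion 1 and 2, and 557 without wild type 3. The block changed no call among the 10 genes. Same-numbered libraries correlated in their deviations from the group means at -0.105, -0.198 and 0.0723, and other pairs at -0.171 to 0.278. Not every library correlated best with its own number. Weak values from 3 libraries per group cannot tell whether the numbers pair the samples, and the labels do not say. With the block 2 electron acceptor genes and 0 ubiquinone synthesis genes were called. Of the 10 genes, 1 was lower in the main fit, 2 with DESeq2, 0 without both ltv1 deletion 1 and wild type 3, and 0 to 1 with 1 library left out. None was higher in any fit. Their median ran from -0.30 to -0.04 with 1 library left out.

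The sign of 5 of the 10 genes (COR1, QCR6, QCR9, CYT1 and CYC7) held in every one of the 17 alternatives in which the gene was tested, which for QCR9 leaves out the mean of at least 50. With 1 library left out, QCR2 ran from -0.041 to 0.51, QCR7 from -0.21 to 0.74, QCR8 from -0.42 to 0.088, RIP1 from -0.49 to 0.17 and CYC1 from -0.24 to 1.00. HAP1 ran from -0.74 to 0.10, HAP4 from -0.067 to 0.27, EHT1 from -0.27 to 0.12, GCN5 from -0.32 to 0.054 and LTV1 from -2.78 to 0.89. LTV1 was at 1.59 with edgeR and 1.59 with DESeq2. Without both ltv1 deletion 1 and wild type 3, PAC2, EHT1, GCN5, RPL41B and YSP3 stood at 0.11, 0.24, 0.20, 0.090 and 0.067. The causes were not tested. RIP1, QCR2 and QCR9 rest on fewer than 60 reads per library, which limits what can be seen in them. The called gene CYC7 shares this limit in ltv1 deletion 1, 2 and 3, with 19, 30 and 53 reads.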
